A study of Arabidopsis thaliana with 9 samples.

Results

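Arabidopsis thaliana plants of 1 genotype, PPD3-RNAi T+ in the Col-0 ecotype, were compared by phenotype: 3 libraries came from plants labelled dwarf and 3 from plants labelled large. These are 6 of the 9 RNA sequencing libraries of the series, and the other 3, from wild type (WT) Col-0, stood beside them as reference. Dwarf and large are the phenotype labels of the samples, and no measured value was used to place a library in a group. Both groups share the RNA interference (RNAi) transgene, which is directed against the transcript of AT1G76450 (PPD3), a chloroplast protein of the PsbP domain family. Its promoter, the number of transgenic lines and the number of plants per library are details not given in the sources used here. Seeds of the dwarf, large and WT plants alike were stratified for 2 d at 4 °C, and plants grew on soil at 22 and 20 °C with a 12 h photoperiod. Aboveground tissue was taken at bolting, the stage at which the flowering stem elongates, and the labels call the samples biological replicates.

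Plants divide resources between growth and defence. Salicylic acid, made through ICS1 and read out through NPR1, drives defence against pathogens that feed on living tissue, while jasmonate, which acts through JAZ repressors and the transcription factor MYC2, drives defence against insects and wounding. Growth rests on cell division, on enzymes that loosen cell walls, and on the hormones auxin, gibberellin and brassinosteroid. Mutants in which salicylic acid signalling or an intracellular immune receptor (NLR) is always active are often dwarfed, and growth and defence genes are therefore set side by side here.

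Gene counts summed to between 34660392 and 35217754 per library, and 19870 of 33977 genes had enough counts to be tested. Levels are given as CPM, counts scaled to a common library size with TMM factors, and differences as the log2 fold change of dwarf over large. A gene was called, and is said to have risen or fallen, at an adjusted p under 0.05 by edgeR's quasi-likelihood test with Benjamini-Hochberg adjustment over all genes tested. The transcript that the transgene targets, PPD3, was at 87.6, 128 and 96.5 CPM in dwarf 1, 2 and 3 and at 86.7, 77.9 and 108 CPM in large 1, 2 and 3, with WT at 115, 100.3 and 91.1. Its values overlapped between dwarf, large and WT, so the transcript does not check the labels, and the groups are called dwarf and large as labelled. The log2 fold change was 0.20 (SE 0.17, adjusted p = 0.558) by edgeR's quasi-likelihood test. It took a negative sign, -0.15, once the step of the chromosome region that holds PPD3 (described below) was taken out. MSH1, a plastid and mitochondrial genome maintenance gene, stood at 0.26 (adjusted p = 0.415).

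The dwarf libraries had less transcript of 2 cold and drought genes and of 2 jasmonate signalling genes than the large ones, with no overlap between the replicates. Of these, the value of MYC2 is uncertain, because 98.5% of it overlaps another gene. With only the dwarf and large libraries in edgeR's fit, none of these genes was called. COR15A and RD29A, which protect cells in cold and drought, averaged 183 ± 17.6 and 271 ± 33.6 CPM in dwarf against 478 ± 75.8 and 567 ± 117 CPM in large, and JAZ3 and MYC2 of the jasmonate pathway 15.3 ± 2.37 and 101 ± 12.9 against 31.2 ± 1.28 and 189 ± 19.9 CPM (mean ± SD, n = 3 each). Salicylic acid and immune receptor genes had mostly higher levels in dwarf, but 1 of the 3 dwarf libraries, dwarf 3, lay close to the large libraries for most of these, and few of them passed the test. Growth genes had mostly small negative values, with 1 fall among 239 tested, a share close to the 0.377% of all genes that fell, and dwarf 3 lay above every large library in the medians of the wall loosening, organ growth and photosystem lists.

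In all, 129 of 19870 genes were called (0.649%), 54 higher in dwarf (0.272%) and 75 lower (0.377%), and 63 of them, 23 up and 40 down, differed at least 2-fold. At an unadjusted p under 0.05 there were 3954 genes. The values of the 3 dwarf and the 3 large libraries did not overlap for 3968 genes (20%), with dwarf above large for 8.79% of genes tested and below it for 11.2%, and the 129 called genes are among them. The plot of fold change against p shows that called genes lie on both sides and that 54 of them lie in chromosome regions described below.

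**Figure D1:**
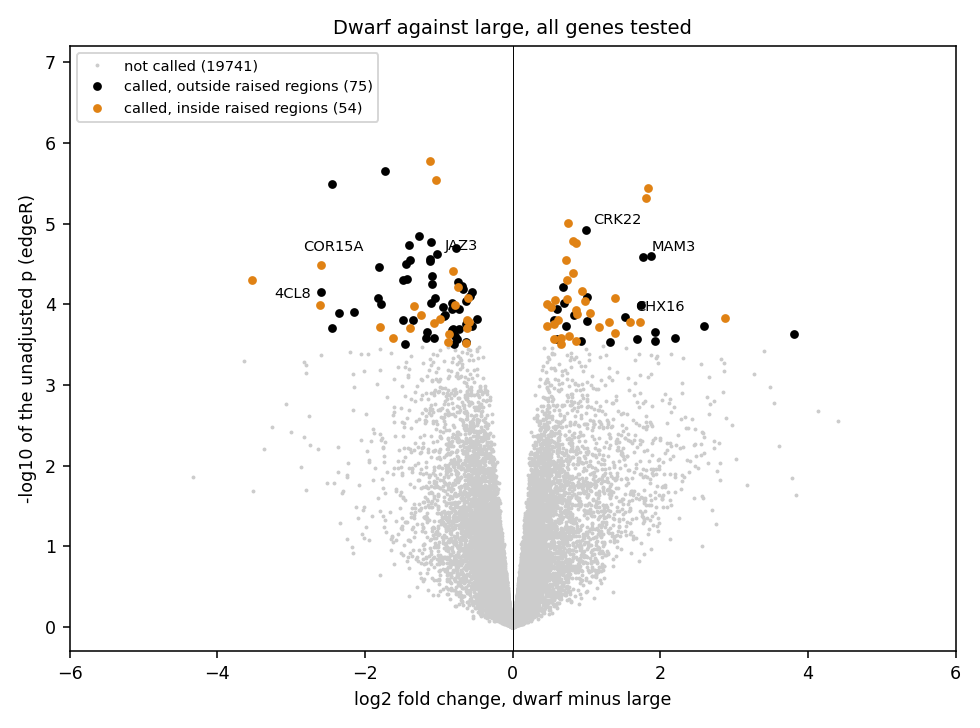
Each point is 1 of 19870 genes, with its log2 fold change (dwarf minus large) on the x axis and -log10 of its unadjusted p by edgeR's quasi-likelihood test on the y axis. Black points are the 75 called genes outside the raised chromosome regions and orange points the 54 called genes inside them.

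The number of calls rested on single libraries. Without dwarf 3 it was 3236 of 20116 genes (16.1%), 1869 up and 1367 down, and these included the 129. Without dwarf 1 it was 207, or 1.03% (52 up and 155 down), of which 89 were among the 129. Without dwarf 2, large 1 or WT 1 it was 0, and it was 6 without large 2, 4 without large 3, 14 without WT 2 and 9 without WT 3. In these 3 fits with 0 calls, 3167, 2684 and 3463 genes had an unadjusted p under 0.05. The same held for the WT libraries as a group. With only the 6 dwarf and large libraries in edgeR's fit, 0 genes were called (2868 at an unadjusted p under 0.05). On all 9 libraries DESeq2 called 1706 genes (8.59%) and limma voom 3781 (19%), both including the 129. The limma voom fit gave each library its own quality weight, so the libraries did not count equally in it. With upper-quartile factors in place of TMM, 184 genes were called, of which 29.3% rose against 41.9% with TMM. The bars of calls with each library left out show that the count was by far the largest without dwarf 3.

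**Figure D2:**
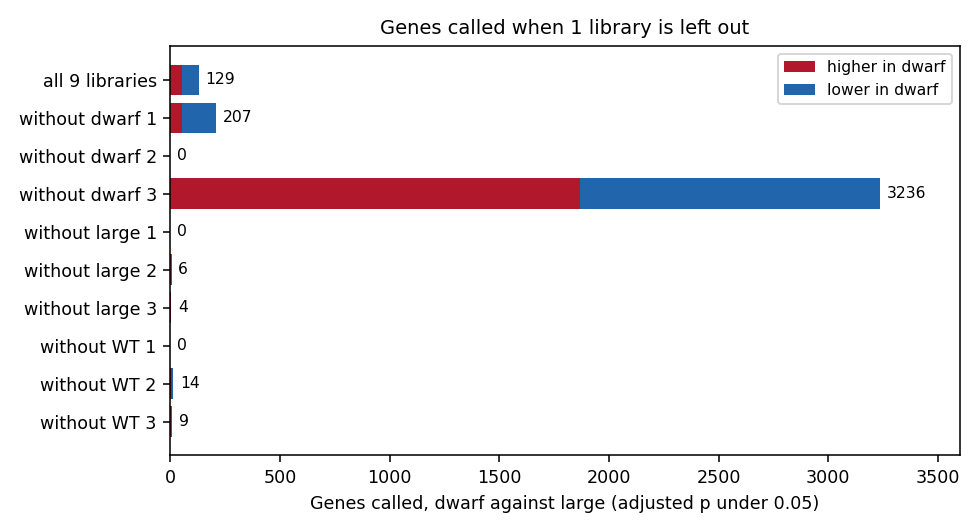
Bars give the number of genes called between dwarf and large (x axis, adjusted p under 0.05 by edgeR's quasi-likelihood test) with all 9 libraries and with each library left out (y axis). Red is higher and blue lower in dwarf, and the count reaches 3236 without dwarf 3 against 129 with all 9 libraries.

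The spread between replicates was widest in the dwarf group. The common biological coefficient of variation, the replicate spread that edgeR estimates over all genes, was 0.274 among dwarf, 0.175 among large and 0.100 among WT libraries. Of 14690 genes that averaged 5 CPM or more, 10.5% differed by more than 2-fold between dwarf replicates, 3.37% between large and 0.865% between WT replicates. Dwarf 3 was nearer to large 1, with 1.91% of genes more than 2-fold apart, than to dwarf 1, with 9.36%, or dwarf 2, with 3.81%. Dwarf 1 and dwarf 2 were 1.93% apart, and the large replicates between 0.742 and 2.91%. By the median absolute log2 difference, dwarf 1 was nearer to dwarf 2 (0.197) than to large 2 (0.222). By the same measure dwarf 2 was nearer to large 2 (0.167) than to dwarf 1. On the first principal component of the 6 libraries, which held 53.0% of the variance, dwarf 1 was at -71.0, dwarf 2 at -32.7 and large 2 at -1.26, while dwarf 3, large 1 and large 3 were at 23.6, 34.0 and 47.3. Large 2 thus lay between dwarf 1 and 2 and the other libraries on this axis, which does not separate the phenotypes. The labels name no batch, and a batch cannot be told apart from these differences.

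Some RNAi libraries held chromosome regions in which most genes were raised together, and dwarf and large differ in which regions these are. Genes of the first 11.7 Mb of chromosome 1 had a median ratio to the WT mean of 1.41 in dwarf 3 and of 0.972 to 0.989 in the other 5 RNAi libraries. The last 4.79 Mb of chromosome 1 stood at 1.43 in dwarf 1 and 1.46 in dwarf 2, and at 0.965 to 0.990 in dwarf 3 and the large libraries. The first 1.13 Mb of chromosome 3 was raised in large 1, 2 and 3 (1.42, 1.44 and 1.43) and in dwarf 1 (1.44). The first 9.03 Mb of chromosome 4 was raised in all 6, at 1.44 to 1.48 in 5 of them and at 1.92 in dwarf 1. In WT the median log2 ratios of the 4 regions were -0.03 to 0.03. The plot of region ratios by library shows that no 2 dwarf libraries carry the same set, whereas the large libraries do.

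**Figure D3:**
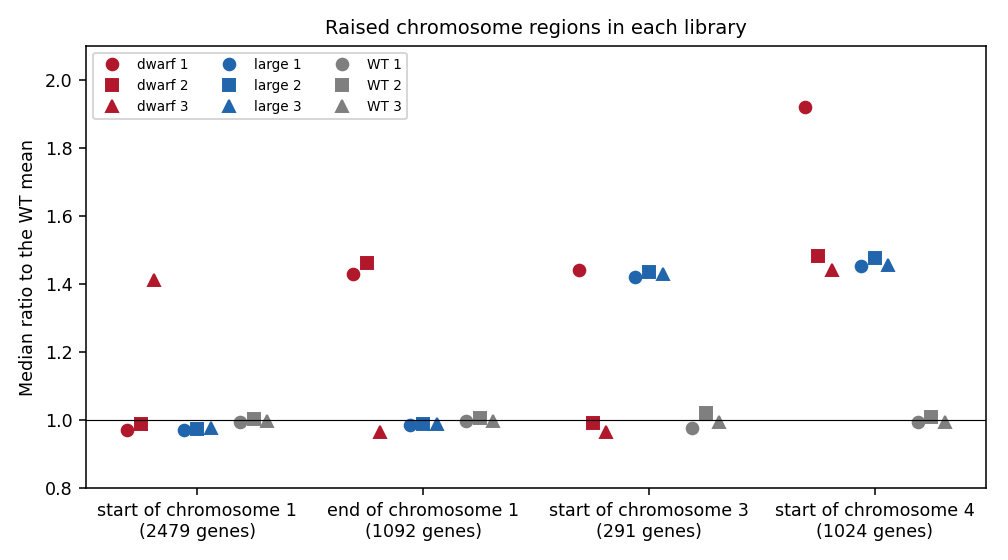
Points give, for each library (colour for group, shape for replicate number), the median ratio of gene levels to the WT mean (y axis) in 4 chromosome regions (x axis). Ratios lie near 1 in the WT libraries, near 1.4 to 1.5 where a region is raised, and at 1.92 for the start of chromosome 4 in dwarf 1.

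Of the 129 calls, 54 lie in these regions, which hold 4886 of the genes tested. At the start of chromosome 1, 23 genes rose and 1 fell, at its end 7 rose and 3 fell, at the start of chromosome 3 all 13 fell, and at the start of chromosome 4 2 rose and 5 fell. Among the 14984 genes outside, 22 rose and 53 fell. With regional median steps subtracted, 38 genes rose and 99 fell over all genes tested, and with the regions left out 19 rose and 42 fell. Each gene named below that lies in a region is marked as such. By the naming rule, the largest called falls in the regions were those of a pair of neighbours at the start of chromosome 3, SEOR1 at -0.88 and SEOa at -0.86, which build the protein filaments of phloem sieve elements, and LSF1, a starch-degradation regulator, at -0.63. With the step out these stood at -0.52, -0.51 and -0.29 and were not called. The largest rises there belonged to RLP12 (end of chromosome 1), a receptor-like protein, at 1.73, and, at the start of chromosome 1, to TIM17-1, a subunit of the mitochondrial protein import channel, at 1.60 and to G6PD4, a plastid glucose-6-phosphate dehydrogenase homologue, at 1.39. With the step out RLP12, at 1.33, was still called, and TIM17-1 and G6PD4, at 1.50 and 1.28, were not.

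Outside the regions, 2 cold and drought genes fell. COR15A, a chloroplast protein that stabilizes membranes in cold (AT2G42540, chromosome 2, 17710441 to 17712330 of the TAIR10.1 assembly), was at 175, 203 and 170.5 CPM in dwarf 1, 2 and 3 and at 563, 456 and 416 CPM in large 1, 2 and 3. RD29A (AT5G52310, chromosome 5, 21240717 to 21243644), a hydrophilic protein induced by desiccation and cold, was at 274, 302 and 235 CPM in dwarf and 701, 517 and 483 CPM in large. For both genes every dwarf library lay below every large library, and every large library below every WT library. The log2 fold change was -1.39 (SE 0.18, adjusted p = 0.0278) for COR15A and -1.07 (SE 0.18, adjusted p = 0.045) for RD29A by edgeR's quasi-likelihood test. Against WT, COR15A stood at -2.25 in dwarf and -0.86 in large, and RD29A at -2.05 and -0.98, all 4 called, where 8.76% of all genes tested were called between dwarf and WT and 4.22% between large and WT. Each such pair of values shares the WT libraries. COR15A was called in 3 and RD29A in 1 of the 9 fits with a library left out, where the fold changes were -1.48 to -1.27 and -1.17 to -0.90.

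The sequence before these genes is shown because the C-repeat or dehydration-responsive element, whose core CCGAC is bound by the CBF and DREB factors, is known from both promoters. The 250 bases before the gene start, read 5′ to 3′ on the gene's strand from the RefSeq TAIR10.1 genome, hold the core (capitals, CCGAC or its reverse complement GTCGG) with its first base 142 and 79 bases before the start of COR15A, and 140, 90 and 33 bases before that of RD29A.
COR15A chr2:17712331-17712580 (minus strand): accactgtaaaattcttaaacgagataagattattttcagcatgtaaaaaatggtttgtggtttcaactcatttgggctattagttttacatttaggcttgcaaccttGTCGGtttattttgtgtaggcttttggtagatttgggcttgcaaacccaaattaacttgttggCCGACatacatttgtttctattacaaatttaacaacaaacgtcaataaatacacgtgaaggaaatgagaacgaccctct
RD29A chr5:21240467-21240716 (plus strand): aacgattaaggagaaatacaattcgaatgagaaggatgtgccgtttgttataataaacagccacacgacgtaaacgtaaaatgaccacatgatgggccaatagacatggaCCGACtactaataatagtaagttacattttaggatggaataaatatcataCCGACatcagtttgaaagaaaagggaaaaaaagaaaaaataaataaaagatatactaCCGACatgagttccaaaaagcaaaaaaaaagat
Windows of this kind held CCGAC on either strand before 3285 of 27443 protein-coding genes (11.97%).

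Among 39 tested genes of abscisic acid, drought and cold, 2 fell and 1 rose, where 0.377% and 0.272% of all genes tested did so. Of these 39, 30 had a negative value, and the median log2 fold change was -0.49 against 0.01 over all genes tested. Dwarf lay below large with no overlap for 9, where 11.2% of all genes tested do so. The riser was PYL4, an abscisic acid receptor, at 42, 53.5 and 53.1 CPM in dwarf and 30.2, 24.7 and 28.7 CPM in large, which gave 0.83 (SE 0.13, adjusted p = 0.0378) on the log2 scale. The groups did not overlap, and the sign is opposite to that of COR15A and RD29A. The cold-induced gene KIN2, at 289, 353 and 229.7 CPM in dwarf and 613, 519 and 534 CPM in large, did not overlap either and missed the threshold (-0.94, adjusted p = 0.0526). GOLS1, which makes galactinol for raffinose sugars, stood at -1.60 (adjusted p = 0.0616) and COR15B, a close homologue of COR15A, at -0.81 (adjusted p = 0.0813). KIN2, GOLS1 and COR15B were chosen for mention after their values were seen. As a set the list did not separate the phenotypes: its median relative to WT was -0.03, -0.92 and -0.76 in dwarf 1, 2 and 3 and -0.16, -0.01 and -0.37 in large. Members with CCGAC in the window, 10 of 39, had a median of -0.51 and the other 29 one of -0.46.

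Genes of jasmonate signalling fell as well. JAZ3 (AT3G17860, chromosome 3, 6119707 to 6123044), a repressor that jasmonate removes, was at 14.1, 13.8 and 18.1 CPM in dwarf and 31.2, 32.4 and 29.9 CPM in large. MYC2, the transcription factor that JAZ proteins hold in check, was at 116, 92.6 and 93.9 CPM and 187, 210.1 and 170.4 CPM. In both cases the dwarf libraries lay below the large ones with no overlap, and the WT values of 26.4, 20.9 and 24.3 and 168, 126 and 157 CPM lay between. The log2 fold change was -1.02 (SE 0.13, adjusted p = 0.0278) for JAZ3 and -0.91 (SE 0.14, adjusted p = 0.0378) for MYC2 by edgeR's quasi-likelihood test. The kit does not mark strand and 98.5% of MYC2 overlaps AT1G32630, so its value is uncertain.

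JAZ3 is a known direct target of MYC2 in jasmonate responses, and MYC2 binds the G-box CACGTG. The 250 bases before JAZ3, shown for that reason and with the G-box in capitals, hold it with its first base 140 and 82 bases before the gene start.
JAZ3 chr3:6119457-6119706 (plus strand): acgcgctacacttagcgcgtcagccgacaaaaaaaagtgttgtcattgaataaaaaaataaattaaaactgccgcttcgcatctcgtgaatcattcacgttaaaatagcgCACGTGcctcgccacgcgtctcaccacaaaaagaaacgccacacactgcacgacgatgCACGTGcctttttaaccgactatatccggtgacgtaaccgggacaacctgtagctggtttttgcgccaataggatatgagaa
CACGTG, which reads the same on both strands, was found before 1780 of 27443 protein-coding genes (6.486%) and not in the window before MYC2. It was found before 6 of 36 jasmonate genes tested, whose median was -0.97 against -0.19 for the other 30, a description of a few genes without a test.

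Over the 36 jasmonate genes tested 2 fell and 0 rose, where 0.377% and 0.272% of all genes tested did so. Of the 36, 26 were negative. The dwarf libraries lay below the large ones with no overlap for 14, where 11.2% of all genes tested do so. At an unadjusted p under 0.05 there were 15 members, where 3954 of 19870 genes tested were under it. Synthesis enzymes did not all share the direction. LOX2, AOS and OPR3 stood at -0.65, -0.91 and -0.52 (adjusted p = 0.112, 0.105 and 0.109) with every dwarf library below every large one, while LOX3 (start of chromosome 1) and LOX4 (end of chromosome 1) overlapped, at 0.19 and 0.47. CORI3, a cystine lyase induced by coronatine and jasmonate, was at 344, 157 and 367 CPM in dwarf and 1050, 947 and 719.9 in large (-1.65, adjusted p = 0.0515). VSP1 and VSP2, wound-induced storage proteins that serve as markers of the MYC2 branch, both stood at -2.36 with adjusted p = 0.109 and 0.139. Within dwarf, VSP2 was lowest in dwarf 2, at 351, 32 and 269 CPM in dwarf 1, 2 and 3 against 1308, 1118 and 922 CPM in large. These synthesis enzymes, VSP1 and VSP2 were chosen for mention after their values were seen. The median of the list relative to WT was 0.26, -0.23 and -0.37 in dwarf and 0.10, 0.66 and 0.02 in large, so dwarf 1 and large overlap. Without dwarf 3, 7 members fell and 0 rose, where 6.8% of all genes tested fell and 9.29% rose. The median log2 fold change of the list was -0.20 with all 9 libraries. It was nearer to no difference without dwarf 3 (-0.06) and without large 2 (-0.02), and -0.61 without dwarf 1.

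**Figure D4:**
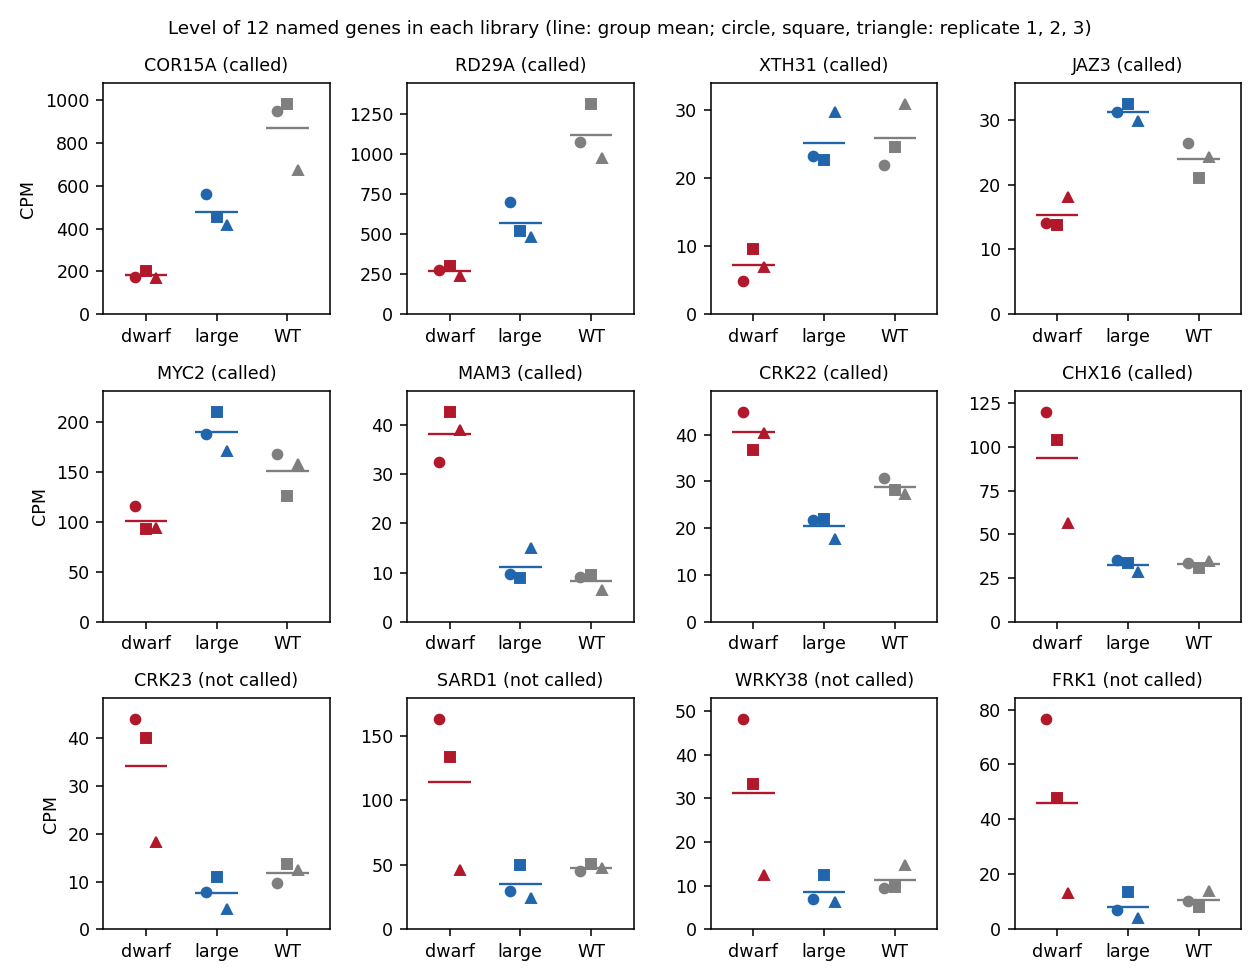
Points give the level in CPM (y axis, starting at 0) of 12 named genes in each dwarf, large and WT library, and lines the group means. In the 8 called genes dwarf and large do not overlap, as with COR15A at 170.5 to 203 CPM in dwarf and 416 to 563 CPM in large, while in SARD1 and FRK1 dwarf 1 and 2 are high and dwarf 3 is within the large range.

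Of the 53 falls outside the regions 29 were at least 2-fold, and those that the naming rule selects (with a symbol, no overlap and 5 CPM or more on average) have differing roles. 4CL8, a 4-coumarate-CoA ligase-like enzyme, fell from 16.1 ± 4.35 CPM in large to 2.68 ± 1.53 CPM in dwarf (mean ± SD, n = 3 each) and stood at -2.59 (SE 0.37, adjusted p = 0.0353). ATSDI1, a protein of sulfur deficiency that represses glucosinolate synthesis, was at 5.54, 8.28 and 4.88 CPM in dwarf, 16.3, 30.7 and 19.4 CPM in large and 3.96, 4.12 and 4.84 CPM in WT. Its fall of -1.83 (adjusted p = 0.0354) thus sets apart the large libraries, which are high, from dwarf and WT, which lie close to each other. XTH31, which modifies xyloglucan in cell walls, shows the reverse arrangement, with 4.94, 9.59 and 6.94 CPM in dwarf, 23.2, 22.7 and 29.6 CPM in large and 21.9, 24.6 and 30.8 CPM in WT, so that dwarf alone is low (-1.81 (SE 0.24, adjusted p = 0.029)). BT1, a nitrate-responsive BTB and TAZ domain protein, fell by 1.40 on the log2 scale (adjusted p = 0.0278), from 61.5, 58 and 51.5 CPM in large to 23.4, 16.8 and 24.8 CPM in dwarf. FBH3, a bHLH factor that activates the flowering gene CONSTANS, and CSLG1, a cellulose synthase-like enzyme, stood at -1.11 and -1.10, with adjusted p = 0.0278 and 0.0337.

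Of the 22 rises outside the regions 13 were at least 2-fold, and the genes given here are those with the largest change that the same rule selects, some of them under 2-fold. MAM3, a chain-elongating enzyme for glucosinolates made from methionine (AT5G23020, chromosome 5, 7718118 to 7721866), was at 32.4, 42.7 and 39 CPM in dwarf, 9.61, 8.9 and 14.9 CPM in large and 9.08, 9.45 and 6.43 CPM in WT. Dwarf 3 sits with the other dwarf libraries here, and large overlaps WT. The log2 fold change was 1.77 (SE 0.22, adjusted p = 0.0278) by edgeR's quasi-likelihood test, and MAM3 was called in 3 of the 9 fits with a library left out, at 1.63 to 2.04. PHT1;4, a phosphate transporter, was at 11, 8.92 and 7.1 CPM in dwarf and 1.85, 3.81 and 1.43 CPM in large (1.93 (SE 0.33, adjusted p = 0.0466)). CHX16, a cation exchanger, was at 120.1, 104 and 56.6 CPM in dwarf and 35.5, 33.9 and 28.3 CPM in large (1.52 (SE 0.24, adjusted p = 0.038)). For both, dwarf 3 was the lowest dwarf library, and that it lies above every large library is a condition of the naming rule. CWLP, a proline-rich protein that links wall and membrane, rose by 1.00, and 80.6% of it overlaps AT3G22121, so its value is uncertain. CNGC12, a cyclic nucleotide-gated channel known from an autoimmune mutant, rose by 0.68, and 20.3% of its exon sequence in words of 50 bp is found elsewhere in the genome.

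Salicylic acid defence genes had higher list medians in dwarf 1 and dwarf 2 than in dwarf 3. Of 36 tested, 33 had a positive value and the median log2 fold change was 0.71, against 51.88% positive and a median of 0.01 over all genes tested, yet 0 were called by edgeR's quasi-likelihood test. At an unadjusted p under 0.05 there were 24 members, where 3954 of 19870 genes tested were under it. DESeq2 called 12 and limma voom 29, each of them higher in dwarf, where 8.59% and 19% of all genes tested were called in either direction. In single libraries the median of the list relative to WT was 1.00, 0.59 and -0.21 in dwarf 1, 2 and 3 and -0.59, 0.16 and -0.92 in large 1, 2 and 3. Dwarf 3 thus lay below large 2. Dwarf and large were apart without overlap in 7 of 36 members, a share close to the 20% of all genes tested. By direction, dwarf was above large in 6 and below it in 1, where 8.79% and 11.2% of all genes tested do so. Without dwarf 3, 23 members rose and 0 fell, where 9.29% of all genes tested rose and 6.8% fell. The list median was lowest, at 0.45, without dwarf 1 and highest, at 1.11, without large 2. In the same 2 dwarf libraries the summed level of stem markers was low, at 105 and 102.5 CPM against 145 to 161.5 CPM in dwarf 3 and large, and the part of tissue shares in these values was not tested.

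Named members show the same order of libraries. SARD1, a transcription factor that switches on salicylic acid synthesis (end of chromosome 1, raised in dwarf 1 and 2), was at 163, 134 and 45.8 CPM in dwarf and 29.9, 50.1 and 24.5 CPM in large (1.71 (SE 0.43, adjusted p = 0.0893)). WRKY38, a repressor of basal defence induced by salicylic acid, was at 48.1, 33.3 and 12.4 CPM and 6.94, 12.3 and 6.34 CPM (1.87 (SE 0.46, adjusted p = 0.0883)). AED1, a secreted protease-like protein that restrains systemic resistance, was at 1426, 1251 and 648 CPM and 346, 539.6 and 246 CPM (1.55 (SE 0.37, adjusted p = 0.0813)). In these 3 genes dwarf 1 and 2 are well above large, and dwarf 3 lies within the large range for SARD1, just above large 2 for WRKY38 and above it for AED1. PR5, a thaumatin-like marker of salicylic acid responses (end of chromosome 1), was at 1705, 1886 and 826 CPM in dwarf and 266, 745 and 134 CPM in large (1.95, adjusted p = 0.135), and ICS1, the synthesis enzyme (end of chromosome 1), at 106, 84.8 and 27.5 CPM and 18.2, 40.7 and 12.3 CPM (1.62, adjusted p = 0.148). PR5 and ICS1 were chosen for mention after their values were seen. The salicylic acid list holds 8 genes of the raised regions, and with the steps taken out its median was 0.71 as before.

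Receptor genes gave the 2 rises among the defence lists outside the glucosinolate genes. Cysteine-rich receptor-like kinases (CRK), many of which are induced by salicylic acid and pathogens, had the highest median of the 21 lists, at 1.11. Of 28 tested 25 were positive and 1 rose, where 0.272% of all genes tested rose. CRK22 was at 44.9, 36.7 and 40.4 CPM in dwarf, 21.7, 21.9 and 17.8 CPM in large and 30.7, 28.2 and 27.3 CPM in WT (0.99 (SE 0.11, adjusted p = 0.0278)). Here all 3 dwarf libraries lie above WT and all 3 large libraries below it, and 16.2% of the exon words of CRK22 occur elsewhere in the genome. Its neighbour CRK23, at 44, 40.0 and 18.3 CPM in dwarf and 7.76, 11 and 4.27 CPM in large, had a larger difference and a wider spread (2.15, adjusted p = 0.0515). CRK24, the next gene in the row, stood at 0.96 (adjusted p = 0.0578). Without overlap, dwarf was above large for 11 of the 28 CRK genes and below for 2, where 8.79% and 11.2% of all genes tested do so. In single libraries the median was 1.24, 0.76 and -0.01 in dwarf and -0.24, 0.13 and -0.66 in large, which puts dwarf 3 below large 2. Without dwarf 3, 23 CRK genes rose, where 9.29% of all genes tested did so.

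Intracellular receptors of the NLR class, which recognise pathogen effectors inside the cell, had small differences that most members shared. Of 22 tested, 1 rose, where 0.272% of all genes tested did so. In all 21 were positive at a median of 0.30, and dwarf lay above large with no overlap for 14, where 8.79% of all genes tested do so. The median of the list relative to WT was 0.28, 0.15 and 0.05 in dwarf 1, 2 and 3 and -0.06, -0.13 and -0.15 in large, with no overlap, and dwarf 3 is the lowest of the dwarf values. CHS1, a TIR and nucleotide-binding protein whose mutant is damaged by chilling (start of chromosome 1, raised in dwarf 3), was the 1 called member, at 14.3, 16.2 and 15.6 CPM in dwarf and 8.59, 9.85 and 9.38 CPM in large (0.73 (SE 0.09, adjusted p = 0.0278)). Taking out the regional step left it at 0.58 and not called, and 92.9% of it overlaps AT1G17600, so its value is uncertain. CSA1, a partner receptor in cell death signalling, was at 45.7, 40.6 and 39.6 CPM and 34.1, 33.4 and 32.2 CPM (0.34, adjusted p = 0.0822), and WRR4, which gives resistance to white rust, at 71.4, 61.5 and 42.8 CPM and 35.8, 41 and 33.8 CPM (0.67, adjusted p = 0.0904). Without dwarf 3, 14 NLR genes rose, where 9.29% of all genes tested did so. On all libraries DESeq2 called 10, all higher in dwarf, where 8.59% of all genes tested were called in either direction.

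Genes of pattern-triggered immunity, the response to conserved microbial molecules at the cell surface, had 29 of 32 positive values, a median of 0.43 and 0 calls. Of these members 13 had an unadjusted p under 0.05, as did 3954 of 19870 genes tested. DESeq2 called 8 and limma voom 13, all higher in dwarf, where 8.59% and 19% of all genes tested were called in either direction. FRK1, a receptor kinase that marks this response, was at 76.5, 47.9 and 13.1 CPM in dwarf and 7.08, 13.6 and 4 CPM in large (2.47 (SE 0.63, adjusted p = 0.0923)). SOBIR1, the co-receptor of receptor-like proteins, was at 725, 589.7 and 327 CPM and 222, 331 and 174 CPM (1.18 (SE 0.31, adjusted p = 0.102)), and 31.6% of it is overlapped by other genes. In both, dwarf 3 lies just under large 2. WRKY29, a transcription factor of this pathway, was low throughout, at 3.4, 2.04 and 2.68 CPM and 1.08, 1.51 and 1.05 CPM (1.16, adjusted p = 0.068). Without dwarf 3, 14 members rose, where 9.29% of all genes tested did so. The list median was 0.24 without dwarf 1 and 0.67 without large 2.

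WRKY transcription factors outside the salicylic acid and pattern-triggered lists had 20 of 22 positive values, a median of 0.77 and 0 calls. Of these members 8 had an unadjusted p under 0.05, as did 3954 of 19870 genes tested. DESeq2 called 4 and limma voom 15, all higher in dwarf, where 8.59% and 19% of all genes tested were called in either direction. WRKY60 was at 29.2, 22.4 and 18 CPM in dwarf and 11.2, 11.9 and 14.2 CPM in large (0.90, adjusted p = 0.0527), and its partner WRKY18, with which it modulates salicylic acid responses, at 89.9, 81.5 and 34.8 CPM and 27, 47.8 and 24.3 CPM (1.06, adjusted p = 0.161). WRKY60 keeps the groups apart, whereas WRKY18 is highest in dwarf 1 and 2 and overlaps in dwarf 3 and large 2. WRKY47, at the start of chromosome 4, stood at 1.68 (adjusted p = 0.0735). Large 2 stands out in this list: its median relative to WT was 0.60, against 1.27, 0.76 and -0.31 in dwarf 1, 2 and 3 and -0.38 and -0.41 in large 1 and 3. Without dwarf 3, 9 members rose, where 9.29% of all genes tested did so. The median fold change was 0.34 without dwarf 1 and 1.27 without large 2.

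Glucosinolates are sulfur-rich compounds that deter herbivores and microbes. The list of aliphatic forms, made from methionine, with the myrosinases that activate them, had 2 rises among 26 tested. Over all genes tested 0.272% rose. Most values of the list were negative, 20 of 26, at a median of -0.23. The risers were MAM3, given above, and CYP79F2, a core enzyme for long-chain forms (start of chromosome 1), at 16.9, 12.4 and 20.7 CPM in dwarf and 6.12, 7.64 and 8.39 CPM in large (1.17 (SE 0.19, adjusted p = 0.0391)). CYP79F2 remained called, at 0.99, with its regional step out. GS-OX2, which oxidises the side chain, stood the other way at -0.91 (adjusted p = 0.0946). Of 25 camalexin and indole glucosinolate genes, made from tryptophan, 19 were positive at a median of 0.31 with 0 calls. Of these members 8 had an unadjusted p under 0.05, as did 3954 of 19870 genes tested. DESeq2 called 3 higher and 1 lower in dwarf, and limma voom 9 higher and 1 lower. Over all genes tested these methods called 8.59% and 19% in either direction. Core enzymes were high in dwarf 1 and 2, as with CYP83B1 at 652, 593 and 379.6 CPM in dwarf and 314, 383 and 311 CPM in large (0.69, adjusted p = 0.11) and SOT16 (end of chromosome 1) at 0.93 (adjusted p = 0.0817). List medians relative to WT overlapped between the groups, at -0.40, -0.54 and 0.10 in dwarf and -0.08, -0.33 and 0.31 in large for the aliphatic list and at 0.51, 0.23 and -0.08 and -0.34, 0.12 and -0.19 for the indole list, and a difference between these lists was not tested. MYB34, a regulator of the indole pathway, stood opposite at 5.57, 4.68 and 7.65 CPM and 9.81, 12.2 and 11.6 CPM (-0.91, adjusted p = 0.0694), with no overlap.

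**Figure D5:**
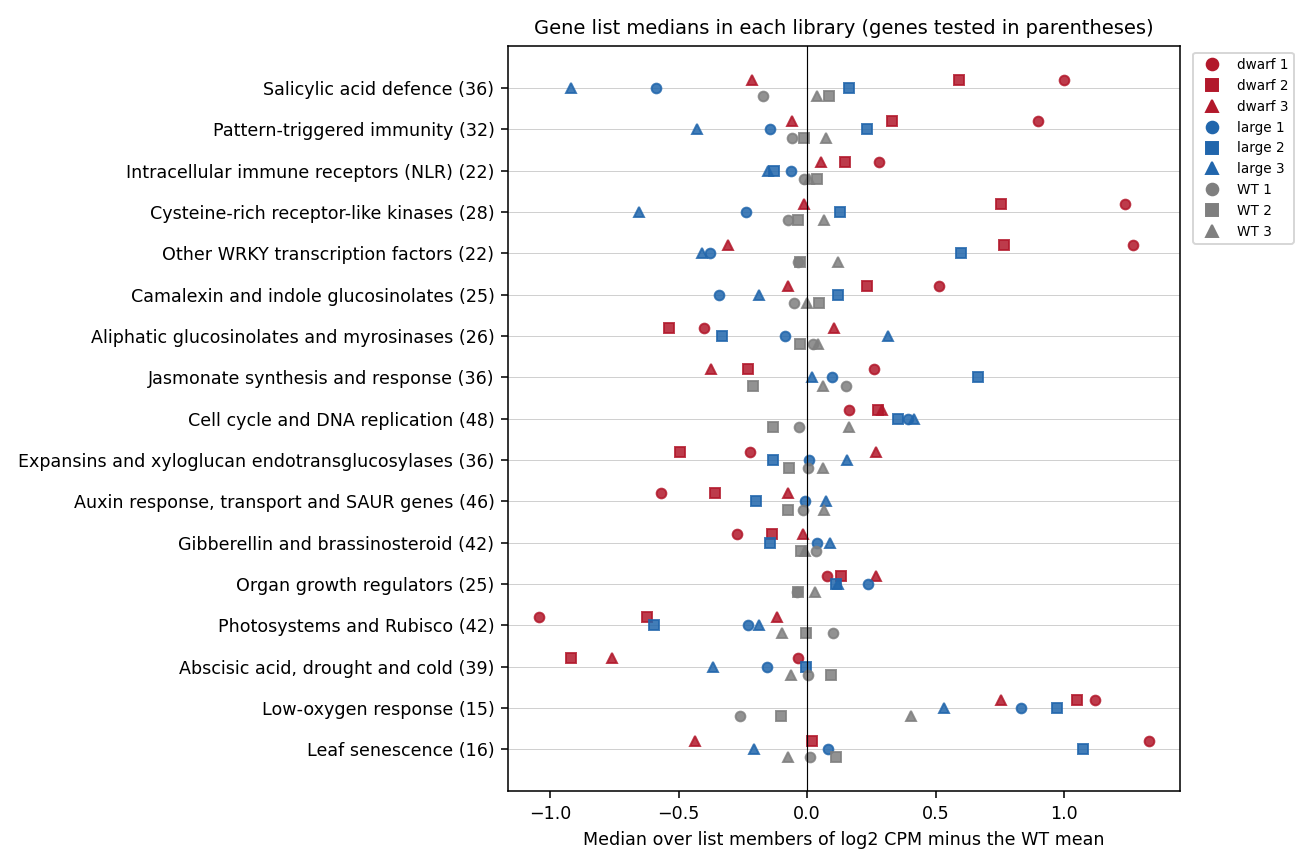
Points give the median over the tested members of a gene list of log2 CPM minus the WT mean (x axis) in each library, for 17 lists (y axis, members tested in parentheses). In the salicylic acid list dwarf 1 and 2 lie at 1.00 and 0.59 and dwarf 3 at -0.21, below large 2 at 0.16, while in the NLR list the dwarf libraries lie above the large ones without overlap.

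Across the 8 defence lists 227 genes were tested, of which 4 rose (1.76%), 2 fell (0.881%) and 163 (71.8%) were positive, where 0.272% of all genes tested rose and 0.377% fell. Values were mostly positive in 6 of these lists and mostly negative in the aliphatic and jasmonate lists, with 6 of 26 and 10 of 36 positive. Without dwarf 3, 87 rose and 10 fell, where 9.29% of all genes tested rose and 6.8% fell. The 6 growth lists held 239 tested genes, of which 0 rose, 1 fell and 62 (25.9%) were positive, and without dwarf 3, 3 rose and 38 fell. Negative values were the more frequent in each of the 6 growth lists, and the number of calls in both groups of lists rested on dwarf 3. Dwarf lay above large with no overlap for 45 of the defence genes (19.8%) and below for 21 (9.25%), and above for 9 (3.77%) and below for 38 (15.9%) of the growth genes, against 8.79% above and 11.2% below over all genes tested.

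Growth genes differed by small amounts. Expansins and xyloglucan endotransglucosylases, which loosen and remodel the wall, had 23 of 36 negative values, a median of -0.21 and 1 call, the fall of XTH31 given above. Over all genes tested 0.377% fell. EXPB3, a beta-expansin, was at 14.2, 23.8 and 28.8 CPM in dwarf and 41.8, 42 and 37.1 CPM in large (-0.86, adjusted p = 0.114), with no overlap, and XTH15 (start of chromosome 4), a low level gene, at -1.18 (adjusted p = 0.125). Dwarf 3 stood on the other side of WT from dwarf 1 and 2 in this list, at -0.22, -0.49 and 0.27 in dwarf 1, 2 and 3 and 0.01, -0.13 and 0.15 in large. The median was -0.60 without dwarf 3, with 12 members down, where 6.8% of all genes tested fell.

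Auxin genes had 34 of 46 negative values, a median of -0.22 and 0 calls. Of these members 11 had an unadjusted p under 0.05, as did 3954 of 19870 genes tested. DESeq2 called 0 higher and 3 lower in dwarf, and limma voom 3 higher and 9 lower. Over all genes tested these methods called 8.59% and 19% in either direction. SAUR21, of the small auxin-induced genes that promote cell expansion, was at 1.98, 2.17 and 2.65 CPM in dwarf, 4.41, 3.64 and 5.93 CPM in large and 6.3, 4.97 and 5.89 CPM in WT (-1.04, adjusted p = 0.0617). AUX1, an auxin influx carrier, was at 24.9, 34.8 and 42.9 CPM and 53.7, 46.8 and 52.6 CPM (-0.58, adjusted p = 0.123). Both keep dwarf below large without overlap, as does SAUR24 at -0.86 (adjusted p = 0.105). SAUR21 and SAUR24 share 5.19% and 7.11% of their exon words with other places in the genome. List medians relative to WT were -0.57, -0.36 and -0.07 in dwarf and -0.01, -0.20 and 0.07 in large. Without dwarf 3, 9 auxin members fell and 1 rose, at a median of -0.35, where 6.8% of all genes tested fell and 9.29% rose.

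Gibberellin and brassinosteroid genes had 30 of 42 negative values, a median of -0.16 and 0 calls. Of these members 11 had an unadjusted p under 0.05, as did 3954 of 19870 genes tested. DESeq2 called 1 higher and 4 lower in dwarf, and limma voom 1 higher and 10 lower. Over all genes tested these methods called 8.59% and 19% in either direction. RGL1, a DELLA repressor of gibberellin responses, was at 8.87, 12.8 and 15.4 CPM in dwarf and 23.1, 22.6 and 22.1 CPM in large (-0.87, adjusted p = 0.0615). GASA4, a gibberellin-induced peptide gene, was at 102, 88.7 and 103 CPM in dwarf, 154, 137 and 203 CPM in large and 92.1, 91.9 and 107 CPM in WT (-0.75, adjusted p = 0.0591). A repressor and an induced gene of the same hormone were thus both lower in dwarf than in large without overlap, RGL1 with large near WT and GASA4 with dwarf near WT. DET2, a brassinosteroid synthesis enzyme, stood at -0.42 (adjusted p = 0.103). Without dwarf 3, 9 members fell and 1 rose, at a median of -0.33, where 6.8% of all genes tested fell and 9.29% rose.

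Cell cycle and DNA replication genes had 39 of 48 negative values with small sizes, a median of -0.15 and 0 calls. Of these members 10 had an unadjusted p under 0.05, as did 3954 of 19870 genes tested. DESeq2 called 3 and limma voom 3, all lower in dwarf, where 8.59% and 19% of all genes tested were called in either direction. Dwarf lay below large without overlap for 12, where 11.2% of all genes tested do so. List medians relative to WT were 0.16, 0.28 and 0.29 in dwarf 1, 2 and 3 and 0.39, 0.35 and 0.41 in large. In WT 1, 2 and 3 they were -0.03, -0.13 and 0.16, so WT 3 was level with dwarf 1. The 3 large medians lay above the 3 dwarf medians. Summed levels of the list overlapped, at 948, 1012 and 1029 CPM in dwarf and 1038, 985 and 1014 CPM in large. CYCD3;2, a cyclin that starts division, was at 22.4, 21.4 and 21.4 CPM in dwarf, 31.5, 26.7 and 29.6 CPM in large and 19.4, 16.5 and 20.4 CPM in WT (-0.43, adjusted p = 0.0817). The division inhibitors KRP2 and SIM were lower in dwarf as well, at -0.53 and -0.60 (adjusted p = 0.121 and 0.12). Activators and inhibitors of division thus had the same sign, and 42.7% of SIM overlaps another gene.

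Organ growth regulators, such as TCP and GRF transcription factors, had 17 of 25 negative values, a median of -0.12 and 0 calls. Of these members 4 had an unadjusted p under 0.05, as did 3954 of 19870 genes tested. DESeq2 called 2 higher and 0 lower in dwarf, and limma voom 1 higher and 5 lower. Over all genes tested these methods called 8.59% and 19% in either direction. TCP3, which restrains leaf cell division, was at 88.1, 112 and 92.3 CPM in dwarf and 72, 67.2 and 80.6 CPM in large (0.41, adjusted p = 0.117), and 78.7% of it overlaps another gene. DA1, a peptidase that limits organ size (start of chromosome 1), stood at 0.40 (adjusted p = 0.121), and PIF4, which promotes elongation in warmth and shade, at -0.26 (adjusted p = 0.185). The dwarf and large values of TCP3, DA1 and PIF4 did not overlap.

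Photosystem and Rubisco genes, which mark green leaf tissue, overlapped between dwarf and large in every member tested. Of 42, 34 were negative, at a median of -0.18, with 0 calls. At an unadjusted p under 0.05 there was 1 member, and 3954 of 19870 genes tested. DESeq2 called 0 and limma voom 4, all lower in dwarf, where 8.59% and 19% of all genes tested were called in either direction. The list median relative to WT was -1.04, -0.62 and -0.12 in dwarf 1, 2 and 3 and -0.23, -0.60 and -0.19 in large, so that dwarf 1, dwarf 2 and large 2 were low. These are the libraries in which the salicylic acid list was highest. PSAN, a photosystem I subunit, was at 212, 449 and 612 CPM in dwarf and 629, 577 and 1103 CPM in large (-0.86, adjusted p = 0.246), and PSBW, of photosystem II, at -0.41 (adjusted p = 0.312), with PSAH-1, of photosystem I and with 49.0% of it overlapped by another gene, at -0.39 (adjusted p = 0.251). In these aboveground samples a smaller share of green cells and less RNA per cell cannot be told apart.

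Medians of the low-oxygen and senescence lists overlapped between dwarf and large. Of 15 low-oxygen genes 0 were called, at a median of -0.17. At an unadjusted p under 0.05 there was 1 member, and 3954 of 19870 genes tested. DESeq2 called 1 and limma voom 2, all higher in dwarf, where 8.59% and 19% of all genes tested were called in either direction. LBD41, a low-oxygen transcription factor (start of chromosome 3), was at 12.3, 11.7 and 9.63 CPM in dwarf, 25.4, 17.4 and 15.3 CPM in large and 2.19, 1.81 and 6.06 CPM in WT (-0.79, adjusted p = 0.299). HRE1, an ethylene response factor of low oxygen (end of chromosome 1), and PDC1, a pyruvate decarboxylase of fermentation, had the opposite sign, at 1.00 (adjusted p = 0.11) and 0.82 (adjusted p = 0.327), and HRE1 did not overlap between the groups. Of 16 senescence genes 8 were positive, 0 were called and 1 had an unadjusted p under 0.05. DESeq2 called 0, and limma voom 1 higher and 1 lower in dwarf. SAG12, a protease of old leaves, was at 62.4, 9.53 and 0.154 CPM in dwarf and 3.47, 7.91 and 0.76 CPM in large, and JUB1, a factor that delays senescence, at 14.2, 8.06 and 3.49 CPM and 2.08, 5.88 and 1.17 CPM. SAG29, a sugar transporter of senescing leaves, had the opposite sign at -2.24 (adjusted p = 0.309), against 2.57 and 1.50 for SAG12 and JUB1 (adjusted p = 0.343 and 0.239). Dwarf 1 and large 2 were the high libraries, as the list median shows with 1.33, 0.02 and -0.43 in dwarf 1, 2 and 3 and 0.08, 1.07 and -0.21 in large.

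Markers of tissues that aboveground samples could hold in differing shares set different libraries apart. Secondary wall and xylem genes, which mark the stem, had 15 of 18 negative values, a median of -0.46 and 0 calls. Of these members 9 had an unadjusted p under 0.05, as did 3954 of 19870 genes tested. DESeq2 called 2 and limma voom 11, all lower in dwarf, where 8.59% and 19% of all genes tested were called in either direction. Their summed level was 105, 102 and 156 CPM in dwarf 1, 2 and 3 and 158, 162 and 145 CPM in large 1, 2 and 3, so dwarf 1 and 2 were low and dwarf 3 was within the large range. Summed senescence markers were at 1147, 587 and 441 CPM in dwarf and 536, 938 and 707 CPM in large, and summed photosystem and Rubisco genes at 68580, 89670 and 136900 CPM and 115500, 87270 and 117500 CPM, so that dwarf 1 and large 2 were high in the first and dwarf 1, dwarf 2 and large 2 low in the second. Of 14 floral organ markers 12 had too few counts to be tested and none of these exceeded 0.576 CPM in a library. Of 13 root markers 10 were too low to be tested, at no more than 0.309 CPM, and 4 of them were at 0 in every library. The 3 root markers tested had log2 fold changes of -0.03 to 1.61 and 0 calls. Dwarf lay above large without overlap for 2 of these 3, where 8.79% of all genes tested do so. An unadjusted p under 0.05 was found for 2 of the 3, and for 3954 of 19870 genes tested.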

How the data were processed

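RNA of aboveground tissue was sequenced from 9 libraries, 3 per group. Per the labels' protocols, a NucleoSpin RNA Plant kit was used for extraction, libraries followed the TruSeq RNA version 2 guide, which does not mark strand, and DNBseq sequencing gave at least 4 Gb of paired 100 bp reads. The TAIR10 build, STAR 2.7.0a and Trim Galore 0.4.1 are named per the submitters' processing notes. The authors deposited raw counts of reads per gene, as whole numbers. The counting program, annotation and strand setting were not given in the sources used here. The 5 lines that name no gene were dropped, with 0.642 to 0.900% of reads outside genes and 0.228 to 0.309% ambiguous. The 285 organelle genes had 0 counts.

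Counts were scaled by TMM (0.935 to 1.05), filtered with filterByExpr and tested in edgeR 4.0.16 (R 4.3.3) by the quasi-likelihood test over 9 libraries in 3 groups with no block, so that WT libraries share in the estimate of spread. A prior count of 2 entered log2 CPM. Standard errors are the size of the log2 fold change divided by the root of its F statistic. The p-values and standard errors set each difference against a spread between these samples that is pooled over dwarf, large and WT. The common biological coefficient of variation was 0.274, 0.175 and 0.100 in these groups, so the wider dwarf spread does not enter on its own. Symbols, positions and sequences are from RefSeq's TAIR10.1 annotation, to which 32548 of 33977 IDs matched. The PPD3 symbol comes from the series. The 21 gene lists held 606 entries, of which 7 were dropped because the reference does not give the symbol to that locus or the files lack it. Named genes are PPD3 and MSH1, up to 8 called genes with the largest change in each direction outside the raised regions and 3 inside (mean of at least 5 CPM, no overlap, a symbol), and in each growth, defence and stress list the 3 members with the smallest p and every called member. The members, the lists and this rule were chosen with earlier results of these data known. Raised regions were found by binary segmentation of log2 ratios to the WT mean (genes of at least 5 CPM, ratios limited to 1.5, segments of at least 50 genes, steps of at least 0.25), without a chance test. The fit was also run on simulated counts with the same spread in every group, so the unequal spread seen here was not tested. The alternatives were DESeq2 size factors, upper-quartile factors, no filter, 1 CPM in 3 libraries, only dwarf and large, and a replicate block. Others were each library left out, regions left out, and regional steps taken out as offsets. The last were DESeq2 1.42.0 and limma 3.58.1 voom with a quality weight for each library.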

Additional observations from a re-analysis of the deposited data

How the results depend on the processing

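The count of 129 called genes (54 up, 75 down) moved by more than 1.5 times under 14 of 19 alternatives. It was 1706 with DESeq2 (939 up, 767 down), 3781 with limma voom (2143 up, 1638 down), 61 with the raised regions left out (19 up, 42 down), and 0 with only dwarf and large in the fit (2868 genes at an unadjusted p under 0.05). With upper-quartile factors 130 genes fell, and 54 rose. Leaving out 1 library gave 0 to 3236 calls, 0 to 1869 up and 0 to 1367 down. With DESeq2 size factors, no filter, a filter of 1 CPM in 3 libraries and the regional steps taken out, 126, 151, 146 and 137 genes were called. The replicate block gave 0 calls in either direction (smallest adjusted p 0.0508, 3857 genes at an unadjusted p under 0.05). Same-numbered dwarf and large libraries correlated at -0.191, 0.00743 and 0.546 in their deviations from the group means, so the numbers were not taken to pair the samples. Of 68 named genes, 25 were called and 0 of these were called under every alternative, while their signs held throughout. The sign changed for 1 named gene, PPD3, at -0.15 with the regional step taken out. Of 21 list medians, those of the low-oxygen and senescence lists changed sign under some alternative, and 14 of 398 list values moved by more than the replicate spread. The floral list has no value at 1 CPM in 3 libraries because no member passed. Low genes such as WRKY29, at 1.05 to 3.40 CPM over dwarf and large, are limited by depth too.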

Other observations

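The median of the shoot meristem list was higher in every dwarf and large library than in every WT library, and WT 3 stood apart from WT 1 and WT 2. STM, which keeps meristem cells undifferentiated, was at 4.53, 5.46 and 2.99 CPM in dwarf 1, 2 and 3, at 8.19, 5.58 and 6.78 CPM in large and at 0.0296, 0.0293 and 0.854 CPM in WT. KNAT1, of the same homeobox family (start of chromosome 4), was at 6.04, 6.3 and 2.28 CPM in dwarf, 7.05, 5.45 and 4.38 CPM in large and 0, 0 and 0.854 CPM in WT. Of 10 meristem and boundary markers 7 were tested, 5 of them in raised regions. Their median relative to WT was 1.91, 1.80 and 1.84 in dwarf, 2.76, 2.23 and 2.16 in large and -0.70, -0.72 and 1.40 in WT 1, 2 and 3. Their summed level differed less, at 88.8, 98.4 and 60.05 CPM in dwarf, 83.8, 69.4 and 69.7 CPM in large and 57.1, 55.6 and 55.1 CPM in WT. WT 3 was also the highest WT library in the median of the low-oxygen list, at -0.26, -0.10 and 0.40 in WT 1, 2 and 3 against 1.12, 1.05 and 0.76 in dwarf and 0.83, 0.97 and 0.53 in large. CYP81F4, which hydroxylates indole glucosinolates, was at 19.5, 14.1 and 19.4 CPM in dwarf, 40.9, 91 and 32.2 CPM in large and 2.66, 1.14 and 18.5 CPM in WT, with WT 3 again nearest to the RNAi libraries. Between dwarf and large CYP81F4 stood at -1.63 (adjusted p = 0.304, edgeR's quasi-likelihood test), with dwarf below large in every library. STM, KNAT1 and CYP81F4 were chosen after their values were seen.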
